A study of Homo sapiens with 54 samples.

Results

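The AP-1 and immediate early genes measured here are 10 genes picked by name, FOS, FOSL1, FOSL2, JUN, JUNB, JUND, EGR1, IER2, IER3 and MYC, out of the 38137 genes listed in the deposited table. All 10 passed the filter on low counts, as did 15378 genes in all. RNA-seq was run on HEK293T cells, an established human embryonic kidney line, in 18 groups of 3 libraries (54 libraries). Cells were transiently transfected with a plasmid encoding RfxCas13d, an RNA-guided RNA-cutting enzyme, in its native form (WT) or as the variants N2V7 or N2V8, which carry mutations in a nuclease domain (HEPN1) meant to lower cutting of bystander RNA. Each effector was paired with crRNA-13 (S13), a guide RNA to C9orf72 in exon 1a, with 1 of 3 additional crRNAs (S3, S4, S7) whose targets the labels do not give, or with a non-targeting crRNA (NTG). The groups are therefore WT_S13, WT_S3, WT_S4, WT_S7 and WT_NTG, and likewise for N2V7 and N2V8. The treatment label of the N2V8_S13 libraries is spelled N2V87, so that their effector was taken from their titles, which name N2V8. Cells given the antisense oligonucleotides ASO2 (against intron 1 of C9orf72) or ASO4 (against exon 2) and untransfected cells (UT) make up the other 3 groups. The effectors were driven by the CAG promoter, which is active in most cell types. Harvest was 48 h after transfection, by the labels. The text of the study gives a later time for this experiment, so that the time of harvest is uncertain. The 3 libraries of a group are described by the submitters as independent biological replicates. Bulk RNA was measured, so that fewer cells with a transcript and less transcript per cell cannot be told apart.

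AP-1 is a family of dimeric transcription factors. JUN, JUNB and JUND pair with each other or with a FOS protein (FOS, FOSL1, FOSL2), and the pairs bind short palindromic DNA sites to switch on genes of growth, migration and stress. Most of these genes are immediate early genes: growth factors and stress raise their transcription within minutes through the ERK and JNK kinases, without new protein synthesis, and their mRNAs decay quickly. EGR1 encodes a zinc finger factor with the same kind of control, while IER2 and IER3 encode small proteins named for their immediate early response, of which IER3 is known as a regulator of cell survival. MYC encodes the bHLH partner of MAX and drives ribosome production and cell growth.

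Promoter sequences of 7 members were matched in RefSeq (GRCh38.p14), those of FOS, FOSL2, JUN, JUNB, JUND, EGR1 and IER2. The 250 bases before the start of transcription were searched for short motifs, on both strands except for TATAAA, which was searched along the gene. TGACNTCA, the 8-base form of the AP-1 and CREB site, was found upstream of JUN and JUND, in 2 of the 7 members and in 6.87% of 35116 promoters. The CArG box, bound by the serum response factor SRF, was found in the window of EGR1 only, at 2 positions, and is in 1.16% of promoters. Sequence beyond these 250 bases was not searched, so that sites further upstream, of FOS or any other member, would be missed. TATAAA lay 33 bases before the start of FOS and 31 bases before that of JUNB, and is in 6.80% of promoters. The 7-base AP-1 site TGANTCA (6.57% of promoters) and the E-box CACGTG (6.34%) were in none of the 7 windows. The windows of JUN and JUND are shown since they hold the family's own site, and those of EGR1 and FOS since these are the textbook immediate early genes. Capitals mark the TGACNTCA match in JUN (67 bases before the start) and JUND (200 bases before it) and the CArG boxes of EGR1 (105 and 83 bases before it), with TATAAA left in lower case. JUN and JUND lie on the minus strand and EGR1 and FOS on the plus strand, and each window is written 5′ to 3′ along its gene, at chr1:58784048-58784297, chr19:18281623-18281872, chr5:138465229-138465478 and chr14:75278578-75278827 in the order of the lines.
JUN: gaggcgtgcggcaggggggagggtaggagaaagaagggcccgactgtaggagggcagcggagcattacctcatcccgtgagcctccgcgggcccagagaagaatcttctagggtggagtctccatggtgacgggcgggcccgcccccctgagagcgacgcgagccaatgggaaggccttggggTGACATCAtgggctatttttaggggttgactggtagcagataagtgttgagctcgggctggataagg
JUND: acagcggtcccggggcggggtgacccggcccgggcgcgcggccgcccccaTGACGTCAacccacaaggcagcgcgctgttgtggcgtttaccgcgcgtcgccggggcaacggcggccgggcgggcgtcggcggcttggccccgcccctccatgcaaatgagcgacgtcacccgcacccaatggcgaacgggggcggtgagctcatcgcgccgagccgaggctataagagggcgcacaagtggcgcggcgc
EGR1: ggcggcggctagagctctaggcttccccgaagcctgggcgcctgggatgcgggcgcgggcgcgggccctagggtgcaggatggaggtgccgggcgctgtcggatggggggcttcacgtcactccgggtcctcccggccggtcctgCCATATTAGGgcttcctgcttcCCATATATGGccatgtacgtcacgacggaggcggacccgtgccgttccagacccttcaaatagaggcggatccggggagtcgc
FOS: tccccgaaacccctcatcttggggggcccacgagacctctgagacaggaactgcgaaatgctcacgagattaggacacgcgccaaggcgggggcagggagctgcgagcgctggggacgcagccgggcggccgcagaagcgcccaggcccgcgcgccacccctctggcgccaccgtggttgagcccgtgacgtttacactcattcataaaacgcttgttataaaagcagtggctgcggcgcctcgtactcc

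Levels are given in CPM, the count of a gene relative to its library's total, after scaling between libraries by the TMM method. Divided by the exon length of each gene's main transcript, JUN stood highest of the 10 in UT cells, at 165 CPM per kb, followed by JUND at 55 CPM per kb. IER2 (18.6), MYC (17.2) and EGR1 (15.9 CPM per kb) came next. IER3 (8.65), JUNB (8.20), FOS (7.60) and FOSL2 (3.53 CPM per kb) were lower, and FOSL1 was lowest at 2.21 CPM per kb. JUN was thus the most abundant member in UT cells, and FOSL1 rests on few reads, with 2.61 to 11.9 CPM over the 54 libraries.

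Over the 18 group means, FOS and MYC had the widest ranges, a ratio of highest to lowest group of 2.42 and 2.41. JUND (2.20), FOSL1 (2.17), FOSL2 (2.08), EGR1 (2.07) and JUN (2.03) followed, and IER3 (1.55), JUNB (1.51) and IER2 (1.44) ranged least. The FOSL1 ratio rests on N2V7_S4, its highest group, whose libraries stood at 6.02, 11.9 and 4.14 CPM. JUN averaged 266 ± 9.13 CPM in N2V8_NTG cells, its lowest group, and 538 ± 18.6 CPM in UT cells, its highest (SD, n = 3 each). In the order of JUN levels, ASO4, ASO2, WT_NTG, WT_S3 and WT_S4 followed UT at means of 529 to 469 CPM, then N2V8_S7 and N2V8_S4 at 422 CPM each, and the remaining 10 groups lay between 376 and 266 CPM. Of its 17 neighboring pairs in that order, 15 overlapped in their libraries, and the breaks fell between WT_S4 and N2V8_S7 and between N2V7_NTG and N2V8_NTG. MYC ran the other way, with its highest mean in N2V8_NTG cells (117 ± 9.67 CPM) and its lowest in ASO2 cells (48.6 ± 1.39 CPM, n = 3 each). Its order broke below N2V8_NTG, between UT and ASO4 and between ASO4 and ASO2, and its other 14 neighboring pairs overlapped. JUND was highest in ASO4 cells at 127 ± 7.57 CPM, above ASO2 and UT at 106 CPM each, and lowest in N2V8_NTG cells at 57.8 ± 2.43 CPM. For FOS, FOSL1, JUNB, EGR1, IER2 and IER3, all 17 neighboring pairs overlapped. Groups further apart in the order could still lack overlap, as FOS did between N2V7_NTG (8.2 to 8.35 CPM) and UT cells (14.9 to 17.9 CPM). The share of overlapping neighbors over all genes was not counted.

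**Figure D1:**
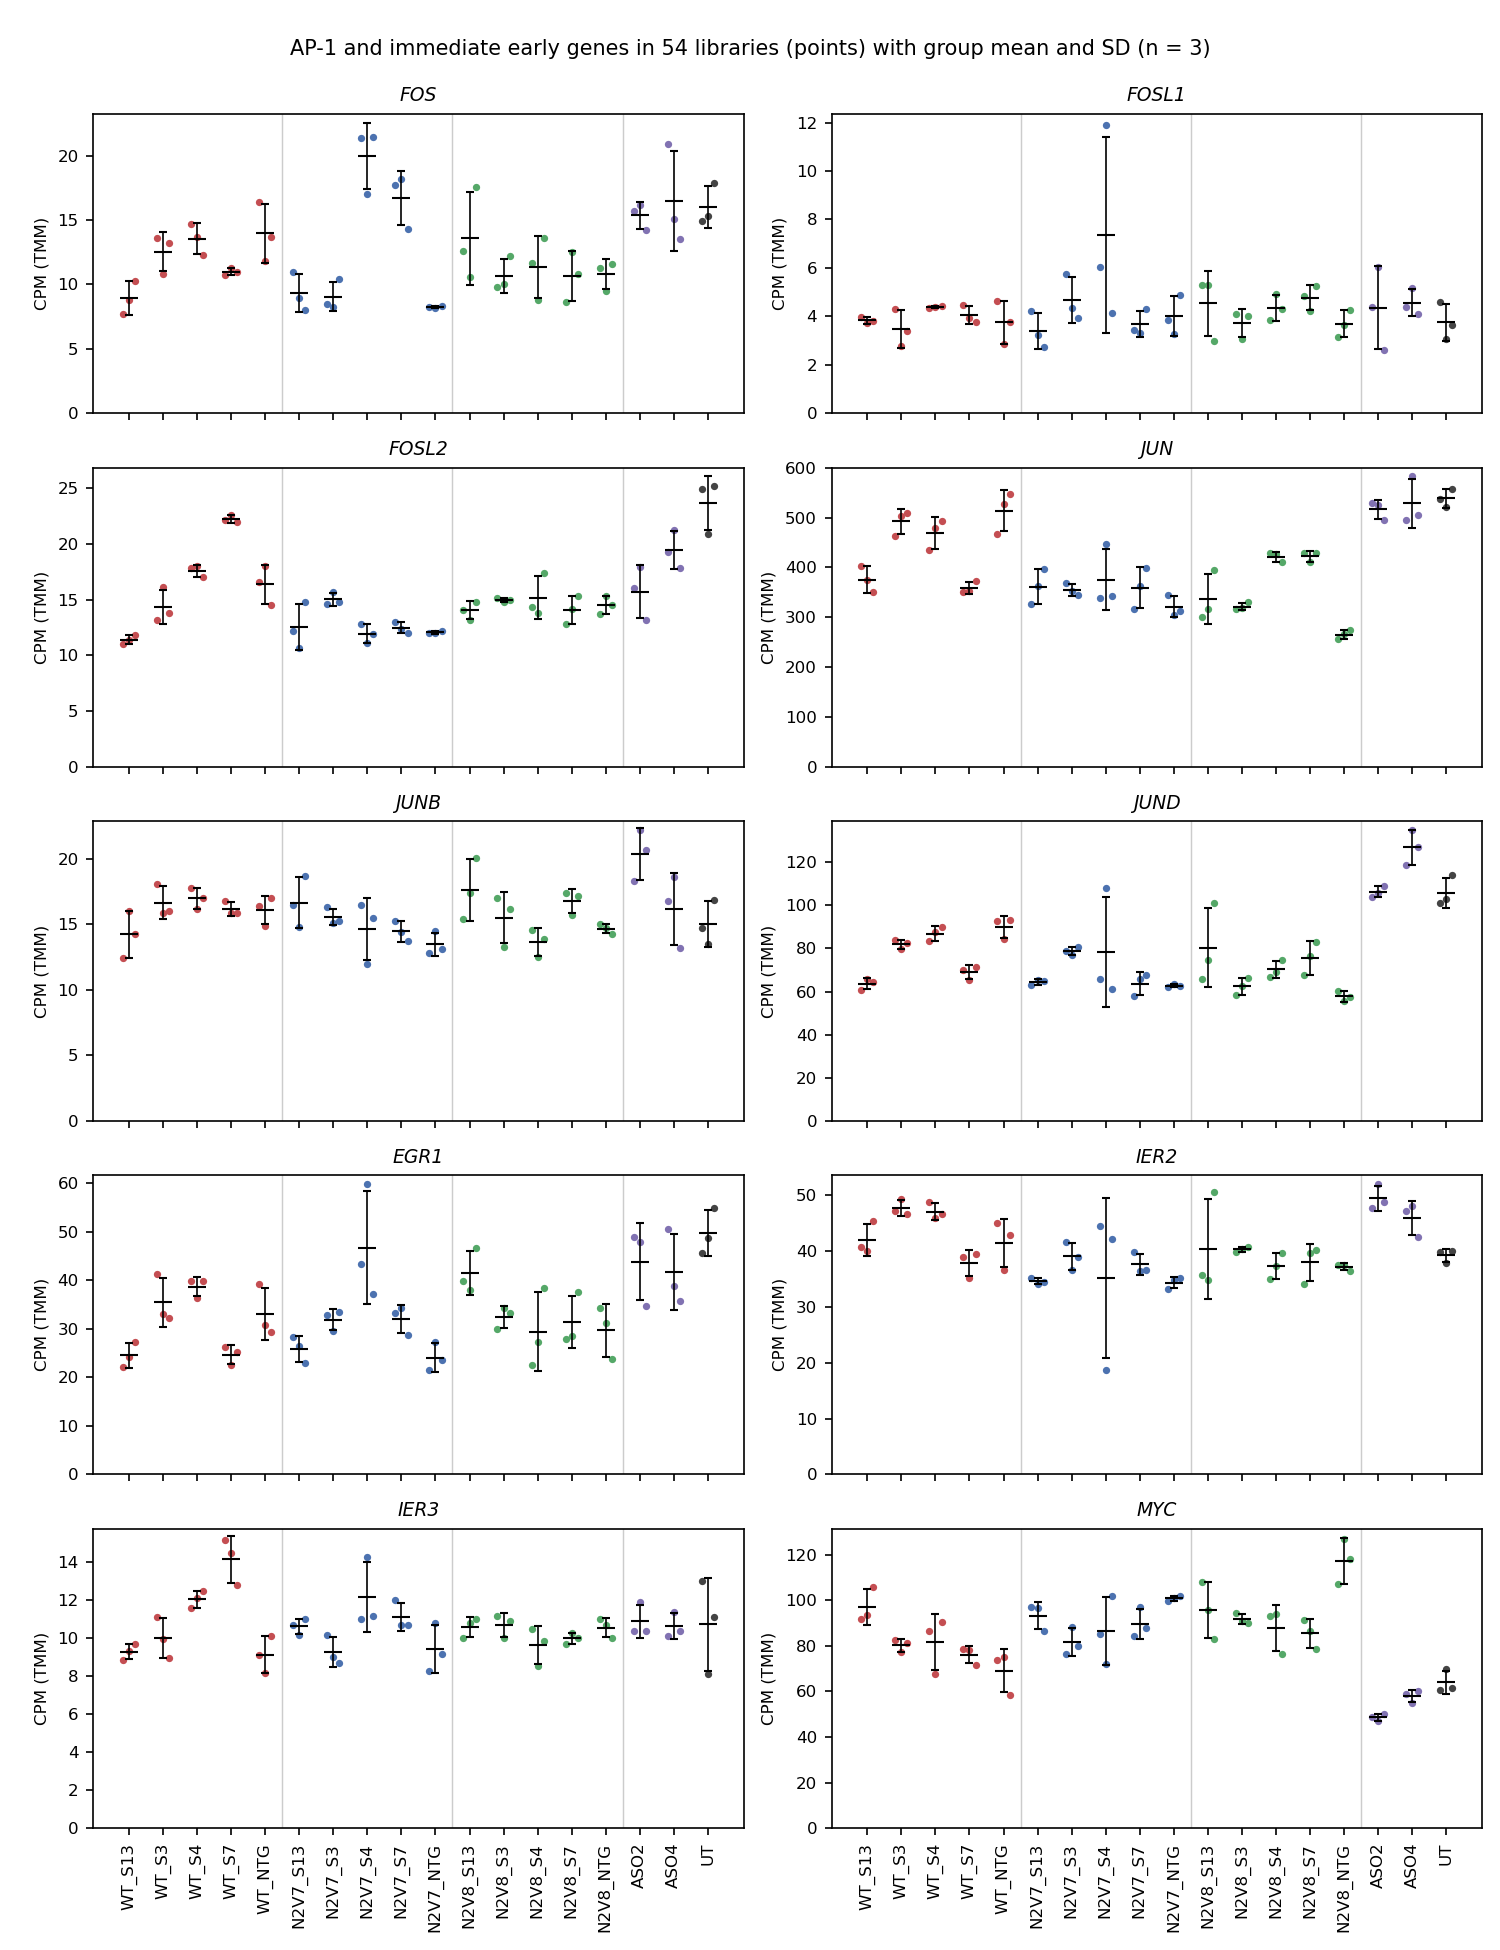
CPM (TMM-scaled) of the 10 genes in each of 54 libraries (points), with the group mean and SD (black, n = 3), for the 18 groups along the horizontal axis, each effector's crRNAs left of its NTG. JUN and JUND are lowest in N2V8_NTG, at 266 and 57.8 CPM, where MYC is highest, at 117 CPM, and library 2 of N2V7_S4 lies apart for FOSL1, JUND and IER2.

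Libraries held 9546773 to 15099225 counts, and every replicate pair differed by more than sampling noise. C9orf72, counted over all its transcripts, averaged 26.4 ± 0.445 CPM in WT_S13 cells and 29.3 ± 3.83 CPM in WT_NTG cells (SD, n = 3 each), with a log2 fold change of -0.15 ± 0.09 (SE, adjusted p = 0.279 by edgeR's quasi-likelihood test), and 11.0 ± 0.770 CPM in ASO4 cells against 29.0 ± 1.31 CPM in UT cells. A gene-level count does not separate the exon 1a transcripts that crRNA-13 is aimed at, so that it does not check the labels of the crRNA-13 groups. The genes listed for the kidney line were read in every library. VIM (762 to 1390 CPM) and NEFM (149 to 500 CPM) were high, and KRT8 (6.8 to 20.1 CPM), LHX1 (5.45 to 13.3 CPM) and PAX2 (2.18 to 8.94 CPM) were low. DBH and TH, noradrenergic genes that mark the SH-SY5Y neuroblastoma cells also used in the study, reached at most 0.0805 and 0.0931 CPM. Some other markers listed for SH-SY5Y cells were read in every library, CHGA at up to 1.35 CPM, HAND2 at up to 8.44 CPM, ISL1 at 12.9 to 30.5 CPM and GATA3 at 27.4 to 78 CPM. No SH-SY5Y library was measured here, so that these levels were not compared between the lines. Library 2 of N2V7_S4 stood apart from all others, as its residuals had an SD of 0.523 (log2 units), while this SD was 0.307 and 0.383 in the other libraries of its group. A factor of unwanted variation, fitted beside the groups, took 63.4% of its squared weight from this library and 95.6% from the whole N2V7_S4 group. It thus mostly describes the spread within that group. Library 3 of N2V8_S13 lay highest of its group for JUN, JUND, EGR1, FOS, JUNB, IER2, FOSL2 and IER3, and lowest for MYC and FOSL1. The SD of its residuals, 0.244, was nevertheless near those of the others. Results that rest on either library are given with and without it.

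The first comparison asks whether expression changes when an effector is directed by crRNA-13 in place of a non-targeting crRNA. With the native enzyme it changed 5 of the 10 genes: FOS, FOSL2, JUN and JUND fell and MYC rose. Called here means a rise of over 25% or a fall of over 20% (the fold limit) together with an adjusted p under 0.05 in edgeR's quasi-likelihood test, and 10.8% of the 15378 genes were called in this comparison. JUN stood at 403, 374 and 350 CPM in WT_S13 cells, against 467, 528 and 547 CPM in WT_NTG cells. The groups did not overlap, and JUN was 1.37-fold lower (log2 fold change -0.45 ± 0.08, SE, adjusted p = 4.6e-05). JUND, a JUN relative that is expressed at rest in most cells, stood at 60.7, 65.6 and 64.4 CPM in WT_S13 cells, against 92.9, 84.2 and 93.1 CPM in WT_NTG cells. It was 1.42-fold lower (-0.50 ± 0.09, adjusted p = 3.18e-05), again without overlap. Here and below, a lack of overlap is a description only. Its share over all genes was not counted, and genes that were not called could lack overlap too.

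The FOS side of the dimer moved the same way. FOS stood at 7.74, 8.80 and 10.3 CPM in WT_S13 cells, against 16.4, 11.8 and 13.7 CPM in WT_NTG cells (-0.64 ± 0.16, adjusted p = 0.00269). FOSL2, also called FRA2, stood at 11.0, 11.4 and 11.8 CPM in WT_S13 cells, against 16.6, 18 and 14.5 CPM in WT_NTG cells (-0.52 ± 0.11, adjusted p = 0.000321). Neither gene overlapped between the groups. Called members were thus found among both FOS and JUN partners. MYC rose 1.40-fold, with 91.8, 93.4 and 106 CPM in WT_S13 cells, against 73.9, 75.2 and 58.5 CPM in WT_NTG cells (0.49 ± 0.09, adjusted p = 0.000169). EGR1 lay lower in all 3 WT_S13 libraries, at 22.2, 24.2 and 27.3 CPM, against 39.3, 30.8 and 29.4 CPM in WT_NTG cells, but did not pass the test (-0.43 ± 0.17, adjusted p = 0.0655). It passed with DESeq2 (adjusted p = 0.0446) and with limma-trend (adjusted p = 0.0378). FOSL1, JUNB, IER2 and IER3 were not called, at log2 fold changes between -0.18 and 0.03. The 5 calls were kept each time 1 of the 6 libraries was left out.

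With N2V7, none of the 10 genes was called for crRNA-13 by edgeR, DESeq2 or limma-trend, where 11.4% of all genes were called by edgeR. At an unadjusted p under 0.05 there were 2, JUN and JUNB. JUNB came closest, at 16.5, 14.8 and 18.7 CPM in N2V7_S13 cells, against 12.8, 14.5 and 13.1 CPM in N2V7_NTG cells, with a fold change of 1.24, just inside the limit (0.31 ± 0.12, adjusted p = 0.0496). JUN stood at 327, 362 and 396 CPM in N2V7_S13 cells, against 345, 305 and 313 CPM in N2V7_NTG cells. These groups overlapped, and the 95% interval of the log2 fold change of JUN was 0.01 to 0.33. For JUND the interval was -0.15 to 0.22 and for MYC -0.30 to 0.07.

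With N2V8, crRNA-13 was followed by higher JUN, JUND and EGR1, so 3 of the 10 genes were called, all of them rises, against 2.44% of all genes. JUN stood at 301, 316 and 394 CPM in N2V8_S13 cells, against 256, 266 and 274 CPM in N2V8_NTG cells (0.34 ± 0.08, adjusted p = 0.00189). JUND stood at 65.7, 74.6 and 101 CPM in N2V8_S13 cells, against 60.3, 55.5 and 57.5 CPM in N2V8_NTG cells (0.47 ± 0.09, adjusted p = 0.000149). EGR1 stood at 39.8, 38.1 and 46.7 CPM in N2V8_S13 cells, against 34.3, 31.2 and 23.7 CPM in N2V8_NTG cells (0.47 ± 0.16, adjusted p = 0.0396). None of the 3 overlapped between groups, yet in each the third library of N2V8_S13 was the highest. Without that library all 3 calls were lost: JUN then differed by 0.22 (adjusted p = 0.0461, under the fold limit), JUND by 0.28 (adjusted p = 0.00905, also under the fold limit) and EGR1 by 0.38 (adjusted p = 0.158). The JUN call was also lost without library 1 of N2V8_NTG, and that of EGR1 without library 2 or 3 of N2V8_NTG, without the factor of unwanted variation (adjusted p = 0.0604) and with adjustment within the comparison (adjusted p = 0.0833). The JUND call was lost in a fit of the compared libraries alone (adjusted p = 0.104). MYC stood at 108, 95.9 and 83.2 CPM in N2V8_S13 cells, against 107, 127 and 118 CPM in N2V8_NTG cells, a difference of -0.29 ± 0.09 (adjusted p = 0.0235) that stayed within the fold limit. The median log2 fold change over the 10 genes was 0.29 with N2V8, 0.09 with N2V7 and -0.31 with WT, against 0.00, 0.01 and 0.00 over all genes tested. Without library 3 of N2V8_S13 the median with N2V8 was 0.13. Leaving out any other library gave 0.24 to 0.29 with N2V8, and leaving out any library gave 0.04 to 0.13 with N2V7 and -0.35 to -0.22 with WT.

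**Figure D2:**
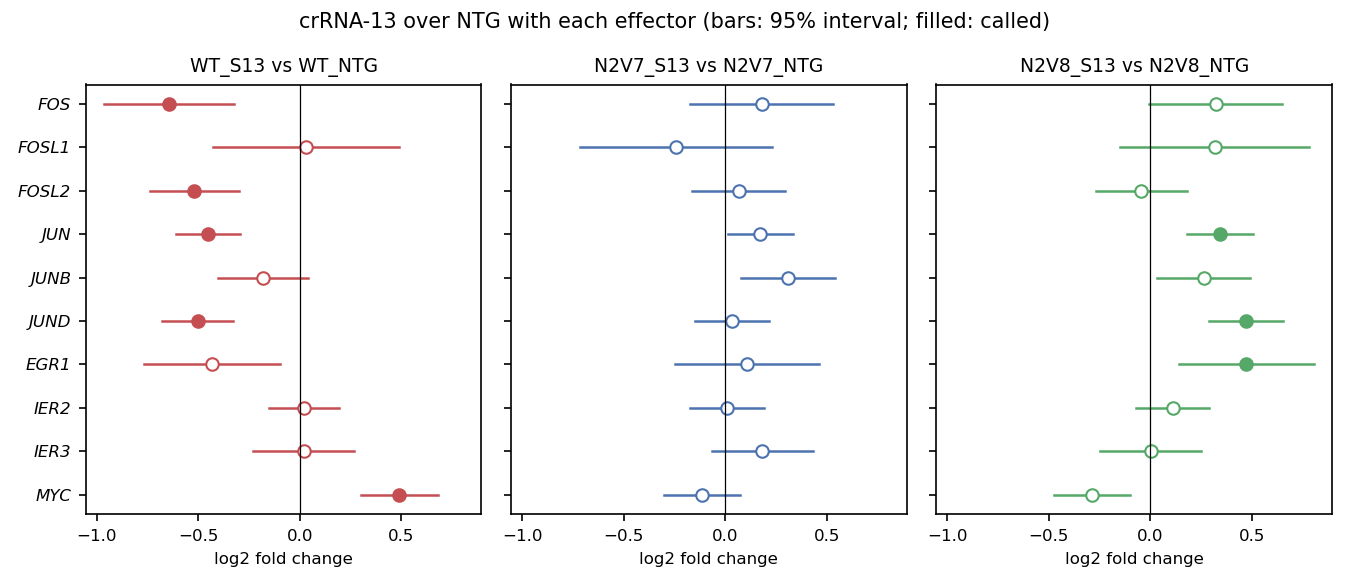
Log2 fold changes (horizontal axis) of the 10 genes for crRNA-13 over NTG with WT (left), N2V7 (middle) and N2V8 (right), with 95% intervals as bars and called genes filled. With WT, FOS, FOSL2, JUN and JUND lie left of 0 and MYC right of it, with N2V7 no point is filled, and with N2V8 JUN, JUND and EGR1 are filled at 0.34 to 0.47.

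The difference between effectors in the effect of crRNA-13 was tested directly, as an interaction term. N2V7 differed from WT for 6 of the 10 genes, where 14.9% of all genes were called: FOS (0.82 ± 0.24), FOSL2 (0.59 ± 0.16), JUN (0.62 ± 0.11), JUNB (0.49 ± 0.16) and JUND (0.54 ± 0.13) were shifted up and MYC down (-0.61 ± 0.13, log2 differences of fold changes with SE). The JUNB call was lost when library 1 of N2V7_NTG, library 3 of N2V7_S13, library 3 of WT_NTG or library 1 of WT_S13 was left out, and the other 5 calls were kept whichever library was left out. Between N2V8 and WT, 7 of 10 were called, where 18.3% of all genes were. FOS (0.97 ± 0.23), FOSL2 (0.48 ± 0.16), JUN (0.80 ± 0.11), JUNB (0.44 ± 0.16), JUND (0.97 ± 0.13) and EGR1 (0.91 ± 0.23) were shifted up and MYC down (-0.78 ± 0.13). Without library 3 of N2V8_S13, FOSL2 (0.44, adjusted p = 0.0552) and JUNB (0.35, adjusted p = 0.144) were no longer called, while FOS (0.75), JUN (0.67), JUND (0.78), EGR1 (0.81) and MYC (-0.69) still were. JUNB and FOSL2 also lost their calls without 6 and 2 other libraries. Without the factor of unwanted variation JUNB was called neither for N2V7 (adjusted p = 0.0501) nor for N2V8 (adjusted p = 0.0776). Between N2V8 and N2V7 only JUND was called (0.43 ± 0.13, adjusted p = 0.0116), where 14.2% of all genes were. This call was lost without library 3 of N2V8_S13 (0.24, adjusted p = 0.106), without the factor (adjusted p = 0.0783) and with the compared libraries alone (adjusted p = 0.0846).

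These differences sit beside unequal NTG levels. JUN averaged 376, 362 and 337 CPM in WT_S13, N2V7_S13 and N2V8_S13 cells, against 514, 321 and 266 CPM in WT_NTG, N2V7_NTG and N2V8_NTG cells. MYC averaged 97.0, 93.3 and 95.7 CPM in the crRNA-13 groups in the same order of effectors, against 69.2, 101 and 117 CPM in the NTG groups. In both genes the effectors' means lay further apart with NTG than with crRNA-13, and each NTG group is shared by the comparison with crRNA-13 and those with UT, with the other effectors and with the additional crRNAs.

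NTG groups were then set against untransfected cells. Plasmid, transfection and effector all differ here and cannot be told apart. With N2V7, 6 of the 10 genes were called, where 20.8% of all genes were, and with N2V8 also 6, where 29.9% were. With both variants FOS, FOSL2, JUN, JUND and EGR1 fell and MYC rose. With WT, 2 were called, where 5.09% of all genes were: FOSL2 and EGR1, which fell.

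JUN stood at 345, 305 and 313 CPM in N2V7_NTG cells and at 256, 266 and 274 CPM in N2V8_NTG cells, against 537, 521 and 558 CPM in UT cells. It was 1.68-fold lower with N2V7 (-0.75 ± 0.08, adjusted p = 6.16e-10) and 2.03-fold lower with N2V8 (-1.02 ± 0.08, adjusted p = 2.47e-13). With WT it was near UT, at 467, 528 and 547 CPM (-0.07 ± 0.08, adjusted p = 0.572). JUND was 1.69-fold lower with N2V7 and 1.83-fold lower with N2V8, and with WT it differed by -0.23 ± 0.08 (adjusted p = 0.0297), under the fold limit.

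EGR1 stood at 21.5, 27.3 and 23.5 CPM in N2V7_NTG cells, against 45.7, 48.7 and 54.9 CPM in UT cells. It fell with all 3 effectors, by 1.05 on the log2 scale with N2V7, by 0.74 with N2V8 and by 0.58 with WT. FOSL2 also fell with all 3, standing at 12.0, 12.0 and 12.2 CPM in N2V7_NTG cells, against 24.9, 20.9 and 25.2 CPM in UT cells. Its log2 fold changes were -0.97 ± 0.11 with N2V7, -0.71 ± 0.11 with N2V8 and -0.53 ± 0.10 with WT. FOS stood at 8.21, 8.20 and 8.35 CPM in N2V7_NTG cells, against 14.9, 15.3 and 17.9 CPM in UT cells (-0.95 ± 0.16, adjusted p = 6.26e-06), and at 11.3, 9.46 and 11.6 CPM in N2V8_NTG cells (-0.57 ± 0.16, adjusted p = 0.00468). The FOS groups did not overlap with UT for either variant. MYC rose 1.57-fold with N2V7 and 1.82-fold with N2V8, with 107, 127 and 118 CPM in N2V8_NTG cells, against 60.7, 69.9 and 61.7 CPM in UT cells (0.86 ± 0.10, adjusted p = 1.36e-09). FOSL1, JUNB, IER2 and IER3 were called with no effector. The median over the 10 was -0.47 with N2V7, -0.32 with N2V8 and -0.13 with WT (-0.19 to -0.05 with 1 library left out), against 0.00 over all genes tested in each comparison.

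**Figure D3:**
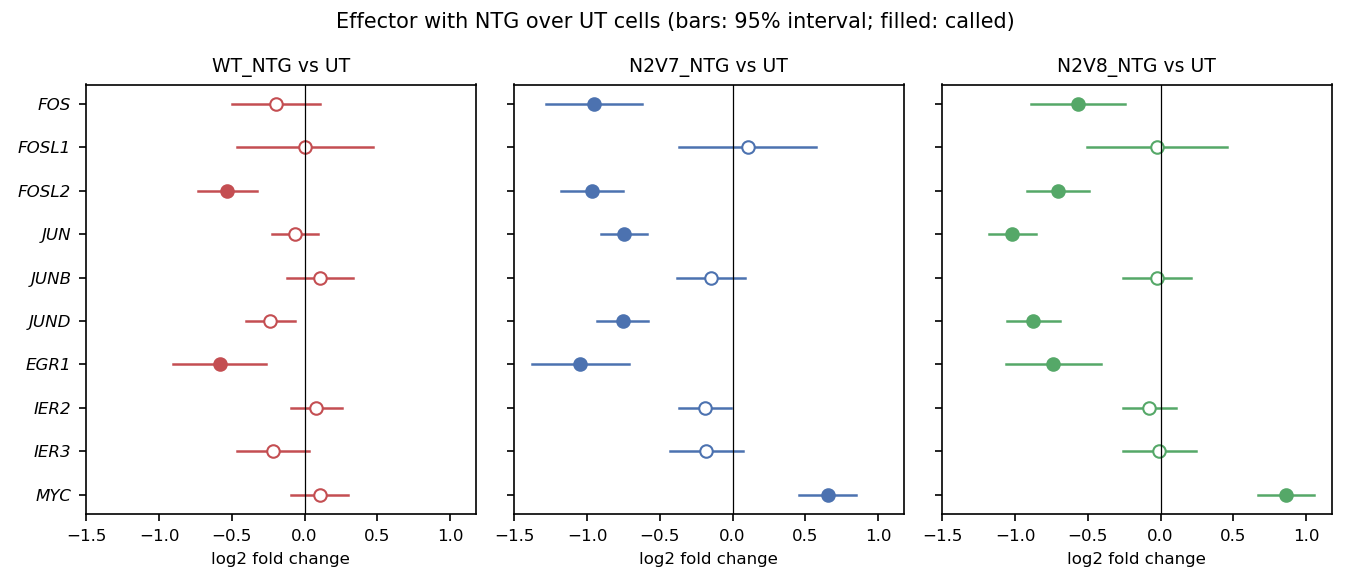
Log2 fold changes (horizontal axis) of the 10 genes for NTG over UT cells with WT (left), N2V7 (middle) and N2V8 (right), with 95% intervals as bars and called genes filled. FOSL2 and EGR1 are filled and below 0 in all 3 panels, and JUN lies at -0.07 with WT and at -0.75 and -1.02 with N2V7 and N2V8.

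With NTG, the variants were also compared with the native enzyme. N2V7_NTG differed from WT_NTG for 6 of 10 genes, where 10.7% of all genes were called: FOS (-0.76 ± 0.16), FOSL2 (-0.44 ± 0.11), JUN (-0.68 ± 0.08), JUND (-0.52 ± 0.09) and EGR1 (-0.46 ± 0.17) fell and MYC rose (0.55 ± 0.09). The EGR1 call (adjusted p = 0.0386) was lost when library 1 or 3 of N2V7_NTG or library 1 of WT_NTG was left out, and without the factor (adjusted p = 0.0531). N2V8_NTG differed from WT_NTG for 3 of 10, where 23.8% of all genes were called. JUN (-0.95 ± 0.08) and JUND (-0.64 ± 0.09) fell and MYC rose (0.76 ± 0.09). FOS did not pass the test (-0.37, adjusted p = 0.0793 by edgeR). It passed under some alternatives, among them a fit of the compared libraries alone (adjusted p = 0.0392). Between N2V8_NTG and N2V7_NTG none was called by edgeR, DESeq2 or limma-trend, where edgeR called 6.36% of all genes, although 4 had an unadjusted p under 0.05. Of these, JUN was 1.21-fold lower with N2V8 (-0.27 ± 0.08, adjusted p = 0.00936), under the fold limit.

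The additional crRNAs were each compared with NTG of the same effector. In WT cells JUN fell with S7, and in N2V8 cells it rose with S4 and S7. MYC fell with all 3 crRNAs in N2V8 cells and was called with neither of the other effectors. With N2V7_S3, MYC differed by -0.31 (adjusted p = 0.0164), within the fold limit, and it was called when library 2 of N2V7_S3 was left out (-0.36). The difference between effectors was not tested for these crRNAs. With N2V8, JUN stood at 429, 426 and 410 CPM with S4 and at 429, 410 and 428 CPM with S7, against 256, 266 and 274 CPM with NTG. Both were 1.59-fold rises (0.67 ± 0.08 each). With S3 JUN differed by 0.27 ± 0.08 (adjusted p = 0.0128), under the fold limit. MYC fell by 0.35 with S3, by 0.41 with S4 and by 0.45 with S7 on the log2 scale. All 3 falls share N2V8_NTG, whose MYC mean was the highest of the 18 groups (117 CPM). The S3 call was lost without library 2 of N2V8_NTG. JUND rose with S7 (0.39 ± 0.09), a call lost without library 3 of N2V8_S7. The members called were thus 1 of 10 with N2V8_S3, 2 with N2V8_S4 and 3 with N2V8_S7, where 3.07%, 6.15% and 7.33% of all genes were called.

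With WT, S7 called 4 of 10 genes, where 19.2% of all genes were called. JUN stood at 351, 352 and 373 CPM in WT_S7 cells, against 467, 528 and 547 CPM in WT_NTG cells (-0.52 ± 0.08), and JUND fell with it (-0.38 ± 0.09). IER3 rose 1.54-fold, with 15.2, 14.5 and 12.8 CPM in WT_S7 cells, against 9.14, 8.19 and 10.1 CPM in WT_NTG cells (0.63 ± 0.12, adjusted p = 7.71e-05). FOSL2 also rose, at 22.1, 22.6 and 22.0 CPM in WT_S7 cells, against 16.6, 18 and 14.5 CPM in WT_NTG cells (0.44 ± 0.10, adjusted p = 0.000929). The 4 calls were kept when any 1 of the 6 libraries was left out. EGR1 did not pass the test (-0.42, adjusted p = 0.083 by edgeR). It passed under some alternatives, among them limma-trend (adjusted p = 0.0437). With S4, IER3 alone was called (0.39 ± 0.12, adjusted p = 0.0162), where 2.67% of all genes were, and this was lost without library 2 of WT_NTG or library 3 of WT_S4. With S3, none was called by edgeR, DESeq2 or limma-trend, where edgeR called 2.74% of all genes, and 2 had an unadjusted p under 0.05.

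With N2V7, FOS rose with S4 and S7, where it stood at 21.4, 17 and 21.5 CPM in N2V7_S4 cells and at 17.7, 18.2 and 14.3 CPM in N2V7_S7 cells, against 8.21, 8.20 and 8.35 CPM in N2V7_NTG cells. FOS was 2.41-fold higher with S4 (1.27 ± 0.16, adjusted p = 3.12e-08) and 2.03-fold higher with S7 (1.02 ± 0.16, adjusted p = 4.18e-06). With S7 it was the 1 member called, where 14.3% of all genes were. With S4, 4 were called, FOS, FOSL1 (0.74 ± 0.22), EGR1 (0.93 ± 0.17) and IER3 (0.36 ± 0.12), where 24.2% of all genes were. These counts move with library 2 of N2V7_S4: over all genes, 3715 were called with it and 1706 without it. When library 2 of N2V7_S4 was dropped and the factor of unwanted variation estimated again, FOS (1.38) and EGR1 (0.75) were still called. FOSL1 (0.34, adjusted p = 0.399) and IER3 (0.24, adjusted p = 0.252) were not, and IER2 was now called as a rise (0.34, adjusted p = 0.00447), against -0.04 with the library. FOSL1 had 6.02, 11.9 and 4.14 CPM in N2V7_S4 cells, so that library 2 held the high value. IER2 had 44.5, 18.7 and 42.2 CPM there, so that it held the low value. With it left out and the factor kept as estimated over all libraries, only FOS was called (1.33, adjusted p = 0.00343), and EGR1 differed by 0.73 (adjusted p = 0.172). With S3, JUND alone rose (0.33 ± 0.09, adjusted p = 0.00642), where 4.15% of all genes were called. The fold of 1.26 lay at the limit, and the call was lost with DESeq2 (0.32), without the factor of unwanted variation (adjusted p = 0.0618) and when library 1 of N2V7_NTG or library 3 of N2V7_S3 was left out.

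**Figure D4:**
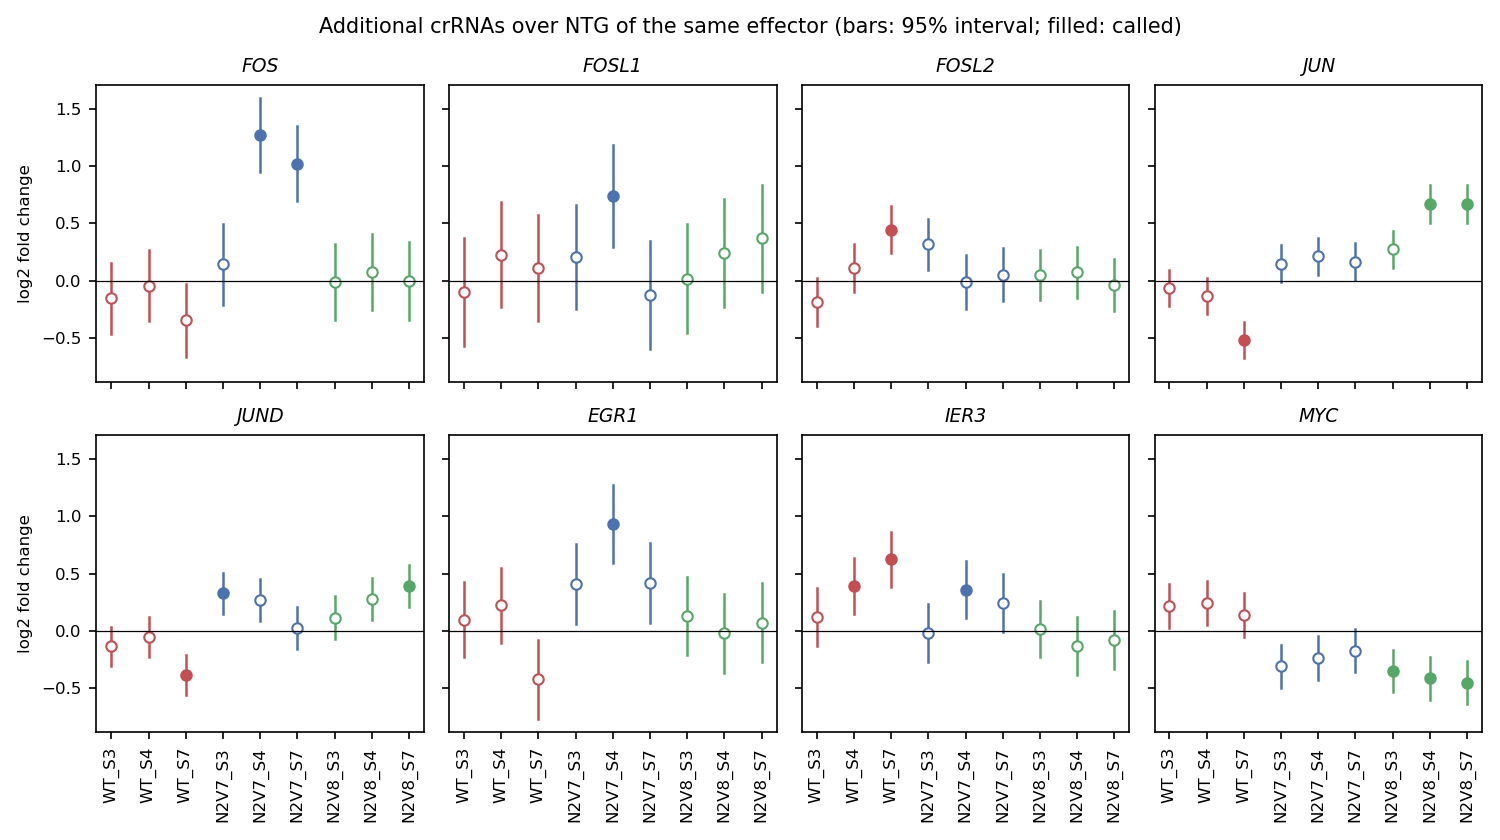
Log2 fold changes (vertical axis) of 8 of the 10 genes for S3, S4 and S7 over NTG of the same effector, with WT (red), N2V7 (blue) and N2V8 (green), 95% intervals as bars and called genes filled. JUN is lowest with WT_S7 at -0.52 and highest with N2V8_S4 and N2V8_S7 at 0.67, and FOS is filled with N2V7_S4 and N2V7_S7 only, at 1.27 and 1.02.

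Both ASOs were compared with the same UT libraries. These cells were untransfected, so that in these comparisons the oligonucleotide and its delivery cannot be told apart. ASO2 changed 4 of the 10 genes relative to UT cells, where 16.4% of all genes were called. MYC stood at 48.7, 47.2 and 50 CPM in ASO2 cells, against 60.7, 69.9 and 61.7 CPM in UT cells. It fell by 0.40 on the log2 scale (SE 0.10, adjusted p = 0.00312), without overlap, and the call was lost without library 2 of UT (-0.32, adjusted p = 0.0445). FOSL2 stood at 16.0, 17.9 and 13.2 CPM in ASO2 cells, against 24.9, 20.9 and 25.2 CPM in UT cells (-0.59 ± 0.10, adjusted p = 1.2e-05). JUNB rose (0.45 ± 0.11, adjusted p = 0.00209), with 18.3, 22.2 and 20.7 CPM in ASO2 cells, against 14.7, 13.5 and 16.9 CPM in UT cells. IER2 rose 1.26-fold (0.33 ± 0.09, adjusted p = 0.0033), a call at the fold limit that was lost without library 2 of ASO2 or library 1 of UT, and without the factor (adjusted p = 0.11). JUN stood at 530, 525 and 495 CPM in ASO2 cells, within the range seen in ASO4 and near that of UT cells (-0.06 ± 0.08). ASO4 called none of the 10 against UT with edgeR, DESeq2 or limma-trend, where edgeR called 2.25% of all genes, and 3 had an unadjusted p under 0.05. Of these, JUND (0.26 ± 0.08, adjusted p = 0.0215) and FOSL2 (-0.28 ± 0.10, adjusted p = 0.0372) stayed within the fold limit. ASO2 against ASO4 called JUNB alone (0.34 ± 0.11, adjusted p = 0.0206), where 12.1% of all genes were called. The JUNB libraries overlapped, and the call was lost without library 2 or 3 of ASO2 or library 3 of ASO4. FOSL2 differed by -0.31 (adjusted p = 0.0269 by edgeR), under the fold limit. It was called without library 2 of ASO2 (-0.40) or library 3 of ASO4 (-0.37).

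Other genes of the pathway were read from lists of textbook members, beside the 10.8% of all genes called with WT and crRNA-13. With WT and crRNA-13, 1 of 12 tested AP-1-type bZIP factors outside the 10 rose and 3 fell. ATF3, a stress-induced partner of JUN, fell to 232 ± 8.01 CPM in WT_S13 cells, against 326 ± 29.5 CPM in WT_NTG cells (SD, n = 3 each, log2 fold change -0.49, adjusted p = 7.81e-05 by edgeR). MAFF (-0.56) also fell, and MAFA (0.73) rose. Of 34 other immediate early genes, 3 rose and 8 fell. CCN1, a matrix protein known as CYR61, stood at 31.8 ± 2.42 CPM in WT_S13 cells and 50.4 ± 6.31 CPM in WT_NTG cells (-0.67, adjusted p = 2.45e-05), and BHLHE40 fell with it (-0.54). The kinase gene PLK2 (0.75) and ARC (0.80) rose. The median log2 fold change over the 34 was -0.08, against 0.00 over all genes tested and -0.31 over the 10. Of 24 upstream kinases and factors, HRAS (0.72) rose and EGFR (-0.61) and the SRF coactivator MRTFA (-0.39) fell, a share of 12.5% and so near that of all genes. Of 12 genes of negative feedback on ERK, DUSP5 (-0.47) and ETV5 (-0.59) fell and none rose (16.7%).

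Gene lists downstream gave mixed directions. Of 15 textbook MYC targets, 3 rose with WT and crRNA-13 and none fell, with NME1 (0.66, adjusted p = 1.52e-08) and HSPE1, a mitochondrial chaperone that stood at 131 ± 7.31 CPM in WT_S13 cells and 85.0 ± 3.57 CPM in WT_NTG cells (0.62). None of the 11 partners of MYC in the MAX network was called by edgeR, with 5 at an unadjusted p under 0.05. Of 11 tested textbook AP-1 targets, PLAU, the urokinase (-0.90), and VIM (-0.34) fell, while the cytokine gene LIF (1.24) and the collagenase gene MMP13 (2.53) rose. MMP13 rested on very few reads, at 1.1 ± 0.233 CPM in WT_S13 cells and 0.188 ± 0.204 CPM in WT_NTG cells.

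In the variants the same lists were read beside 11.4% of all genes called with N2V7 and 2.44% called with N2V8. With N2V7 and crRNA-13, ATF3 rose (253 ± 13.1 CPM in N2V7_S13 cells, 198 ± 13.5 CPM in N2V7_NTG cells, 0.35), and MAFA (-0.52) and MAF (-0.42) fell, with 1 rise and 3 falls among the 12 bZIP factors. PLK2 (0.41) and HES1 (0.33) were the 2 of 34 immediate early genes that rose. SRF (-0.41), MNT (-0.41), NCL (-0.43) and CCND1 (-0.44) fell, each the single fall in its list, and CXCL8 rose (1.21) at 1.14 ± 0.23 CPM in N2V7_S13 cells and 0.489 ± 0.0743 CPM in N2V7_NTG cells. Of the 12 ERK feedback genes none was called by edgeR, with 3 at an unadjusted p under 0.05. With N2V8 and crRNA-13, JDP2 (0.36), ZFP36 (0.55) and BHLHE40 (0.33) rose and DUSP2 (-0.69) fell. SPRED3 rose (1.15) at 2.05 ± 0.707 CPM in N2V8_S13 cells and 0.928 ± 0.132 CPM in N2V8_NTG cells, and HSPE1 (-0.41) and NOP16 (-0.43) were the 2 of 15 MYC targets that fell. None of the 24 upstream genes, the 11 MAX network genes or the 11 AP-1 targets was called by edgeR, with 3, 1 and 2 at an unadjusted p under 0.05. The lists were not read again without library 3 of N2V8_S13.

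Some of the lists were also read where the variants with NTG were set against UT cells. The genes named for these comparisons were chosen after their values were seen. Of all genes, 20.8% were called with N2V7, 29.9% with N2V8 and 5.09% with WT. Among the 12 bZIP factors MAFA rose (0.52) and 4 fell with N2V7, and BATF3 rose (0.69) and 3 fell with N2V8. None of the 12 was called by edgeR with WT, with 4 at an unadjusted p under 0.05. ATF3 stood at 198 ± 13.5 CPM in N2V7_NTG cells and 208 ± 13.3 CPM in N2V8_NTG cells, against 386 ± 25.8 CPM in UT cells (-0.96 and -0.89), and in WT_NTG cells it stood at 326 ± 29.5 CPM, a difference of -0.24 that stayed within the fold limit. Of the 34 other immediate early genes, 4 rose and 9 fell with N2V7, 5 rose and 9 fell with N2V8, and 2 rose with WT, where the share of 5.88% was near that of all genes. CCN1 stood at 26.6 ± 1.02 CPM in N2V7_NTG cells and 27.1 ± 2.29 CPM in N2V8_NTG cells, against 62.6 ± 7.23 CPM in UT cells (-1.23 and -1.20). The phosphatase gene DUSP1 (-0.44 and -0.40) and NFIL3 (-0.79 and -0.77) fell with both variants, and PLK2, PLK3, ARC and IER5L rose with both. Of the 15 MYC targets, 5 rose and 2 fell with N2V7 and 6 rose and 1 fell with N2V8, led by NME1 (0.78 with N2V7 and 1.21 with N2V8) and HSPE1 (0.92 and 1.21). The median over the 34 was -0.18 with N2V7 and -0.12 with N2V8, and over the 15 MYC targets 0.18 and 0.25, against 0.00 over all genes tested in both comparisons. Of the 11 tested AP-1 targets, 2 rose and 4 fell with each variant. In WT_S7 against WT_NTG cells, where MYC was not called, 9 of the 15 MYC targets rose and 0 fell. There 19.2% of all genes were called.

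Across the 18 group means, JUN and JUND varied together (Pearson r = 0.855) and both ran against MYC (r = -0.838 for JUN, r = -0.886 for JUND). FOS followed EGR1 (r = 0.826) more closely than it followed JUN (r = 0.498). FOSL1 and IER3 were close to unrelated to JUN (r = 0.02 and -0.08). These values describe 18 means of 3 libraries each that share a sequencing lane. The means were not corrected by the factor of unwanted variation and include library 2 of N2V7_S4. Among 11755 other genes whose log2 CPM averaged 2 or more, the 2 most like JUN were AARS1 and VLDLR (r = 0.949 each) and those most like MYC were GALNT11 (r = 0.961) and RUVBL1 (r = 0.935). GTPBP2 (r = 0.941) and C3 (r = 0.940) were most like JUND, and GPR161 (r = 0.954) and MYO19 (r = 0.924) most like FOSL2. For FOS, NAP1L1 and ALG3 reached r = 0.850 each, and for EGR1, CLGN reached r = 0.846 and BUD13 r = 0.835. FIZ1 (r = 0.854) and GCC1 (r = 0.847) were most like IER2, KTN1 (r = 0.844) and SEC62 (r = 0.825) most like FOSL1, and IPMK (r = 0.813) and SPRY2 (r = 0.801) most like IER3. JUNB had the least alike neighbors, MFSD4A (r = 0.759) and PLEKHB1 (r = 0.752).

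**Figure D5:**
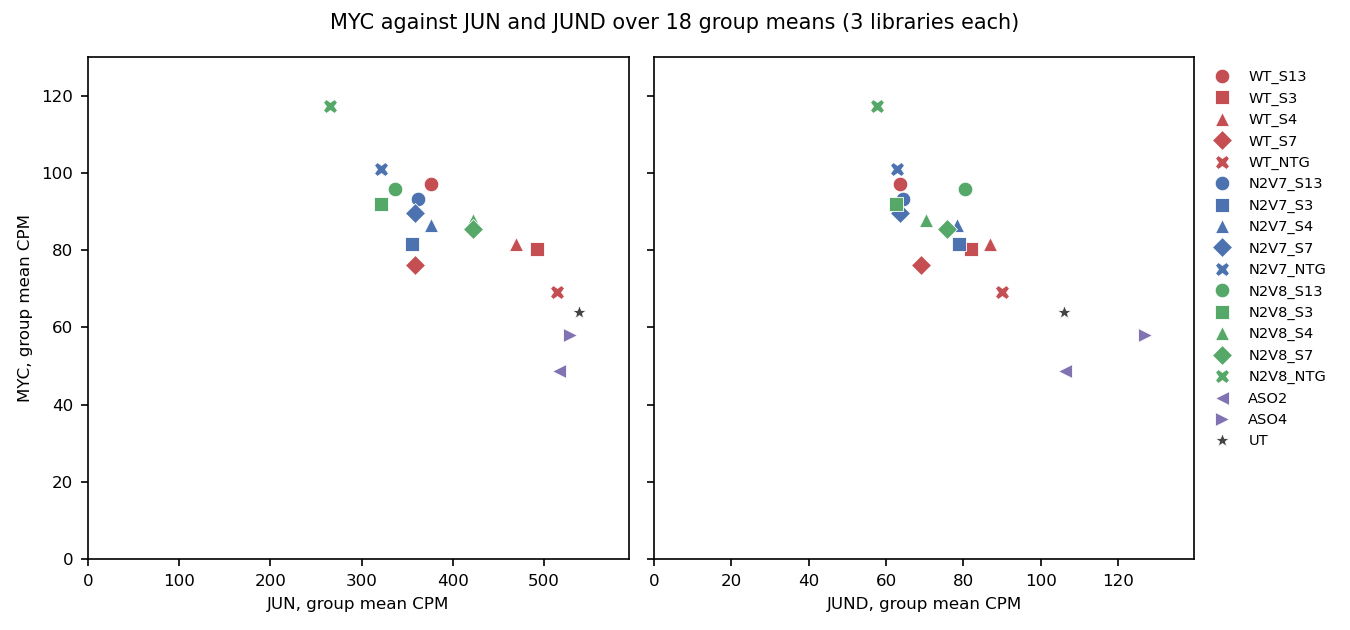
Group mean CPM of MYC (vertical axis) against that of JUN (left) and JUND (right) over 18 groups of 3 libraries, with color for the effector and marker shape for the crRNA or oligonucleotide. UT and the ASO groups lie at high JUN and low MYC, and N2V8_NTG lies at the opposite corner, at 266 CPM of JUN and 117 CPM of MYC.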

How the data were processed

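RNA-seq of HEK293T cells (polyA-selected, stranded libraries) was analyzed in 54 libraries. Per the submitters' processing notes, the authors quantified transcripts with Salmon (version 1.5.2) against a human transcriptome (NCBI Annotation Release 109) with the GRCh38 genome as decoy, and summed them to genes with tximport. The deposited values are estimated counts per gene, scaled for transcript length. They were rounded to whole numbers here. A second deposited column of another unit, a mark for genes the authors kept, was not used.

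Genes were filtered with filterByExpr (15378 of 38137 kept), libraries scaled by TMM, and 1 factor of unwanted variation estimated from residuals (RUVr). All 18 groups entered 1 quasi-likelihood fit in edgeR (version 4.0.16, R 4.3.3), with 35 residual degrees of freedom and 24 contrasts in 6 families, within which p-values were adjusted by Benjamini-Hochberg. Calls needed a fold change over 1.25 and an adjusted p under 0.05. DESeq2 (version 1.42.0) and limma-trend (version 3.58.1) served as alternatives, beside DESeq2 size factors, no low-count filter, no factor, the compared libraries alone, a stricter p, adjustment within each comparison, a replicate block and leaving out each library in turn. The fit was tested on simulated data. The simulated counts held no outlying library, so that they did not test how the factor of unwanted variation handles N2V7_S4. Likeness between genes was taken over group means of log2 CPM with a prior count of 2. Library totals ran from 9546773 to 15099225 counts, and intervals at the 95% level come from the fit. Lengths for levels per kb are those of canonical transcripts in the GENCODE annotation. Motif shares are over 35116 RefSeq promoters.

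The members, the gene lists and the rule for named genes (all members, and from each list up to 2 called genes with the largest rise and 2 with the largest fall in each crRNA-13 comparison) were chosen with earlier results of these data known, so none of the counts is independent support for a pattern. Of the lists, 1 transcription factor and 1 cell type marker are not reported here, and the counts leave them out.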

Additional observations from a re-analysis of the deposited data

Results flagged for a closer look

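The interaction test (edgeR quasi-likelihood, log2 difference of fold changes, 3 libraries a group) compared the effect of crRNA-13 between effectors. It called 6 of the 10 genes between N2V7 and WT, where 14.9% of all genes were called. Between N2V8 and WT it called 7, where 18.3% were, and between N2V8 and N2V7 it called 1, where 14.2% were. NTG levels were unequal, with JUN at 514, 321 and 266 CPM in WT_NTG, N2V7_NTG and N2V8_NTG cells. With crRNA-13 JUN stood at 376, 362 and 337 CPM in the same order. Between N2V7 and WT the differences were 0.82 for FOS, 0.59 for FOSL2, 0.62 for JUN, 0.49 for JUNB, 0.54 for JUND and -0.61 for MYC, with adjusted p between 6.99e-05 for JUN and 0.0213 for JUNB. Between N2V8 and WT they were 0.965 for FOS, 0.48 for FOSL2, 0.795 for JUN, 0.44 for JUNB, 0.97 for JUND, 0.91 for EGR1 and -0.78 for MYC, with adjusted p between 2.04e-07 for JUND and 0.0384 for JUNB. The JUNB calls were lost without any 1 of 4 libraries for N2V7 and of 7 libraries for N2V8, and both were lost without the factor of unwanted variation. The FOSL2 call for N2V8 was lost without any 1 of 3 libraries. Between N2V8 and N2V7 the difference was 0.43 for JUND (adjusted p = 0.0116), and 0.24 (adjusted p = 0.106) without library 3 of N2V8_S13.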

How the results depend on the processing

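Of 67 calls of members over 24 comparisons, 54 were kept under every alternative other than leaving out 1 library and 49 under all alternatives, and 154 of 240 pairs of member and comparison were called under none. The stricter adjusted p lost 10 calls and gained 0, leaving out the factor lost 8 and gained 0, the compared libraries alone lost 6 and gained 6, and no low-count filter lost 4 and gained 7. Leaving out library 2 of N2V7_S4 lost 2 and gained 3, the DESeq2 test and adjustment within each comparison each lost 2 and gained 1, DESeq2 size factors lost 1 and gained 0, and limma-trend lost 0 and gained 4. Members called changed by over 1.5 times as follows. ASO2 against ASO4 held 0 in place of 1 at an adjusted p under 0.01 and with the compared libraries alone. N2V7_S3 held 0 in place of 1 with DESeq2, with its size factors and without the factor, and 2 with limma-trend. Without the low-count filter and with the compared libraries alone it held 1, EGR1 in place of JUND. N2V7_S4 held 2 in place of 4 at the stricter p and with the compared libraries alone. N2V7_S7 held 2 in place of 1 with limma-trend, without the filter and with the compared libraries alone. The interaction of N2V8 and N2V7 held 0 in place of 1 at the stricter p, without the factor and with the compared libraries alone, and 2 without the filter. WT_S4 held 0 in place of 1 at the stricter p, with adjustment within the comparison and without the filter. The cause of these shifts was not tested. Leaving out 1 library at a time gave 0 to 1 members for ASO2 against ASO4, ASO4 against UT, N2V7_S13, N2V8_S3 and the interaction of N2V8 and N2V7, 0 to 2 for N2V7_S3 and WT_S4, 1 to 3 for N2V7_S4 and 0 to 5 for N2V8_S13. Direction reversed in 2 values, both for N2V7_S4 without its library 2: IER2 at 0.34 with the factor estimated again, and IER3 at -0.08 with the factor kept, where leaving out each library gave -0.080 to 0.46. Over all genes, N2V7_S4 called 3715, against 1706 without library 2 and 342 with the compared libraries alone. At the stricter p the count was 169 in place of 375 for N2V8_S13, 158 in place of 346 for ASO4 against UT, 452 in place of 783 for WT_NTG against UT, 247 in place of 422 for WT_S3, 227 in place of 410 for WT_S4, 361 in place of 638 for N2V7_S3, 230 in place of 472 for N2V8_S3, 604 in place of 946 for N2V8_S4, 734 in place of 1127 for N2V8_S7, 611 in place of 978 for N2V8_NTG against N2V7_NTG, and, for the interactions, 1445 in place of 2289 for N2V7 and WT and 1396 in place of 2189 for N2V8 and N2V7. With adjustment within each comparison it was 240 for N2V8_S13, 167 for ASO4, 249 for WT_S3 and 237 for WT_S4. Without the factor it was 241 for N2V8_S13, 223 for ASO4 and 1441 for the interaction of N2V8 and N2V7.

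Replicate numbers did not pair libraries: residuals of same-numbered libraries of different groups correlated at 0.00112 on average, and in 0 of 21 comparisons did every pair exceed 0.1. A fit with the replicate block lost 0 and gained 0 member calls, with 5 members called for WT_S13, 3 for N2V8_S13 and 6 each for N2V7_NTG and N2V8_NTG against UT. Depth limits FOSL1 most, at 2.61 to 11.9 CPM.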
